A study of Mus musculus with 4 samples.

Results

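Cdkn1a, 6 other genes of the p53 and cell-cycle arrest programme (Mdm2, Ccng1, Btg2, Trp53inp1, Sesn1 and Cdkn2a) and the 3 Gadd45 genes were followed in soleus muscle of mdx mice, in which the dystrophin gene Dmd is mutated. These 10 genes were matched by symbol among the 24054 symbols of the count table, and all 10 passed the filter on low counts that left 13652 genes for testing. The genes were chosen by values of this same comparison, so the differences between mCDC and vehicle muscles are given for them as a description, with no test.

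Both groups were female mdx mice on the C57BL/10ScSn background, infused through the femoral vein once a month from 8 weeks of age until the 12-month endpoint. One group received mouse cardiosphere-derived cells (mCDCs), a stromal and progenitor-like population grown from heart tissue, here from 1 C57BL/10ScSn/J donor heart and used at passage 5. The other group received the vehicle, IMDM medium. Each group had 2 soleus libraries, and the labels do not say more than that they are separate samples, so p-values measure the spread between these samples.

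p53 is a transcription factor that is stabilized after DNA damage and other stress, and it switches on genes that halt the cell cycle, repair DNA or drive cell death. Cdkn1a encodes p21, which inhibits cyclin-dependent kinases, and in muscle it is also switched on without p53 when myoblasts leave the cell cycle to differentiate. The Gadd45 proteins are small stress sensors that bind p21, PCNA and the kinase Map3k4, and Gadd45a is known as a gene raised in denervated muscle.

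Library totals ran from 22481391 to 27187425 expected counts. Levels are given as CPM, counts per 1000000 of a library with TMM scaling, and a log2 fold change is mCDC over vehicle from an edgeR fit across all genes tested, with its standard error (SE). Following the thresholds of the study, a gene was called where its fold exceeded 1.5 and its unadjusted p was below 0.05. By edgeR's quasi-likelihood test no gene had an adjusted p under 0.05, 947 had an unadjusted p under 0.05 and the smallest adjusted p was 0.200; by DESeq2, 48 of 18132 had an adjusted p under 0.05 and 718 an unadjusted one. The 7 muscle fibre markers summed to 118835 to 130153 CPM per library, none of them called. An exact permutation test of 2 libraries against 2 cannot give a p below 0.333.

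The promoters are shown first because p53 acts by binding a paired motif in its targets, and the members differed in whether that motif lay near the start. Promoter sequences came from RefSeq annotation of GRCm38.p6, with 250 bases before and 50 after each start site, and 9 of the 10 members had 12 promoters in that table, all but Trp53inp1. The p53 decamer, 1 unit of the paired p53 motif, was searched on both strands, and 5 of the 12 promoters, of 5 members, held at least 1. Of all 32851 promoters, 8.36% held the decamer. Pairs of decamers with at most 13 bases between them were in 24 promoters, or 0.0731%, and the upstream Cdkn1a start was the one member promoter among these.

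The 250 bases before each Cdkn1a start are given below 5′ to 3′ on the gene's strand, with p53 decamers in capitals. The upstream start is transcribed from base 29090979 and the second from base 29093769 of chromosome 17.
Cdkn1a upstream start, chr17:29090729-29090978, plus strand: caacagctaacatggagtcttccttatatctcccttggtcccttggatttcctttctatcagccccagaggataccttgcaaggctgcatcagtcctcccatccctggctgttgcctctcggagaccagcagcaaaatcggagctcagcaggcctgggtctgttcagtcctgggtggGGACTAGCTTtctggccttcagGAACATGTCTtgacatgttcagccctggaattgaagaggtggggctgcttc
Cdkn1a second start, chr17:29093519-29093768, plus strand: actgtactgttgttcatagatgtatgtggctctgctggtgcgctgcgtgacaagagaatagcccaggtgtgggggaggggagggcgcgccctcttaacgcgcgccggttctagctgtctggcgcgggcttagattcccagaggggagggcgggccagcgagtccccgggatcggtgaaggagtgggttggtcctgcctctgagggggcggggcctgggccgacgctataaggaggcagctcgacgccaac
In the upstream sequence the decamer GGACTAGCTT began 73 bases before the start and GAACATGTCT began 51 bases before it. The 10 bases after the latter, TGACATGTTC, fitted 9 of the 10 letters of the motif. The second start had no decamer in its window.

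Mdm2 and Ccng1 each had 1 decamer, printed in the same way, and in Mdm2 the capitals also mark the reverse complement of the FoxO motif TGTTTAC.
Mdm2, chr10:117710759-117711008, minus strand: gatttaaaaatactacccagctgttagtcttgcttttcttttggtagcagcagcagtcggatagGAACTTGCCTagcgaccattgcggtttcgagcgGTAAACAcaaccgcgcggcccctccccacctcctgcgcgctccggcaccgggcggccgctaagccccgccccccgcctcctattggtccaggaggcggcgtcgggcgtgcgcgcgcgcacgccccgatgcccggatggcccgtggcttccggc
Ccng1, chr11:40755287-40755536, minus strand: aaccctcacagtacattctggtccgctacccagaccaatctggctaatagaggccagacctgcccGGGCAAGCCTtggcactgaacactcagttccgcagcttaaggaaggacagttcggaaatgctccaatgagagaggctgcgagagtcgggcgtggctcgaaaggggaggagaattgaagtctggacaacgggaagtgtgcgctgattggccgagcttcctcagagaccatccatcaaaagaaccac
The Mdm2 decamer GAACTTGCCT began 186 bases before the start and the Ccng1 decamer GGGCAAGCCT 185 bases before. The FoxO motif, found in 3.65% of all promoters, began 153 bases before the Mdm2 start and lay 22 bases after the first Sesn1 start. The second Sesn1 start had the decamer AAGCTTGTTT 173 bases before it. Btg2 had the cAMP response element TGACGTCA, present in 1.79% of promoters, 166 bases before its start. Neither Cdkn2a start had any of the motifs searched, and none of the 12 member promoters held the AP-1 motif TGANTCA, which 7.81% of promoters held.

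The 3 Gadd45 promoters are shown to compare the paralogs, with the p53 decamer in capitals in Gadd45a and the TATA motif TATAAA, searched on the gene's strand alone, in capitals in Gadd45b and Gadd45g.
Gadd45a, chr6:67037408-67037657, minus strand: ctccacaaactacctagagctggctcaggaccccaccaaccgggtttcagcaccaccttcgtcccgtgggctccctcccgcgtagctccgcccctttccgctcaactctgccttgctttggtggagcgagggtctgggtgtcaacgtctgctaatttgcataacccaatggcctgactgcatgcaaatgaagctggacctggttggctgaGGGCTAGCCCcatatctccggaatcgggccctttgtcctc
Gadd45b, chr10:80929841-80930090, plus strand: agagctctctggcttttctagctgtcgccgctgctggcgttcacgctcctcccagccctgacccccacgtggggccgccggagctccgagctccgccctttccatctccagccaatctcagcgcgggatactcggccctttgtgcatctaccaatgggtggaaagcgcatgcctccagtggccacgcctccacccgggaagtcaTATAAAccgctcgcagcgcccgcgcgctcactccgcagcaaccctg
Gadd45g, chr13:51846425-51846674, plus strand: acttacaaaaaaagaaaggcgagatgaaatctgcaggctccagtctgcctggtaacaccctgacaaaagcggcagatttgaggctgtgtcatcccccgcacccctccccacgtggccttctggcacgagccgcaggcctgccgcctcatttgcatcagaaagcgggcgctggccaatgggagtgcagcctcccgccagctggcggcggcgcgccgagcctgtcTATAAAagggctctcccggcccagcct
Gadd45a had the decamer GGGCTAGCCC 40 bases before its start and no TATA motif. That motif, in 8.32% of all promoters, began 46 bases before the Gadd45b start and 27 bases before the Gadd45g start. These matches describe letters in a window and are not measured binding.

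Cdkn1a lies at chr17:29090976-29100727 on the plus strand in GENCODE annotation of mm10 (GRCm38), the build of all gene positions given here. It had 75.4 and 97.8 CPM in mCDC replicates 1 and 2 and 40.8 and 52.1 CPM in vehicle replicates 1 and 2. Both mCDC libraries lay above both vehicle libraries, with means of 86.6 ± 15.9 CPM (SD, n = 2) and 46.4 ± 8.02 CPM (SD, n = 2). The log2 fold change was 0.90 (SE 0.18), a 1.86-fold higher level, and it ranged from 0.70 to 1.09 when each library was left out in turn. Of the 31-base words in its transcripts, 9.78% were shared with other genes, and 6.88% were shared with AC167363.2 on the opposite strand, which the count table does not list. The RSEM counts of Cdkn1a were whole in all 4 libraries. These are whole muscles, in which more cells of a type and more RNA per cell cannot be told apart.

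**Figure D1:**
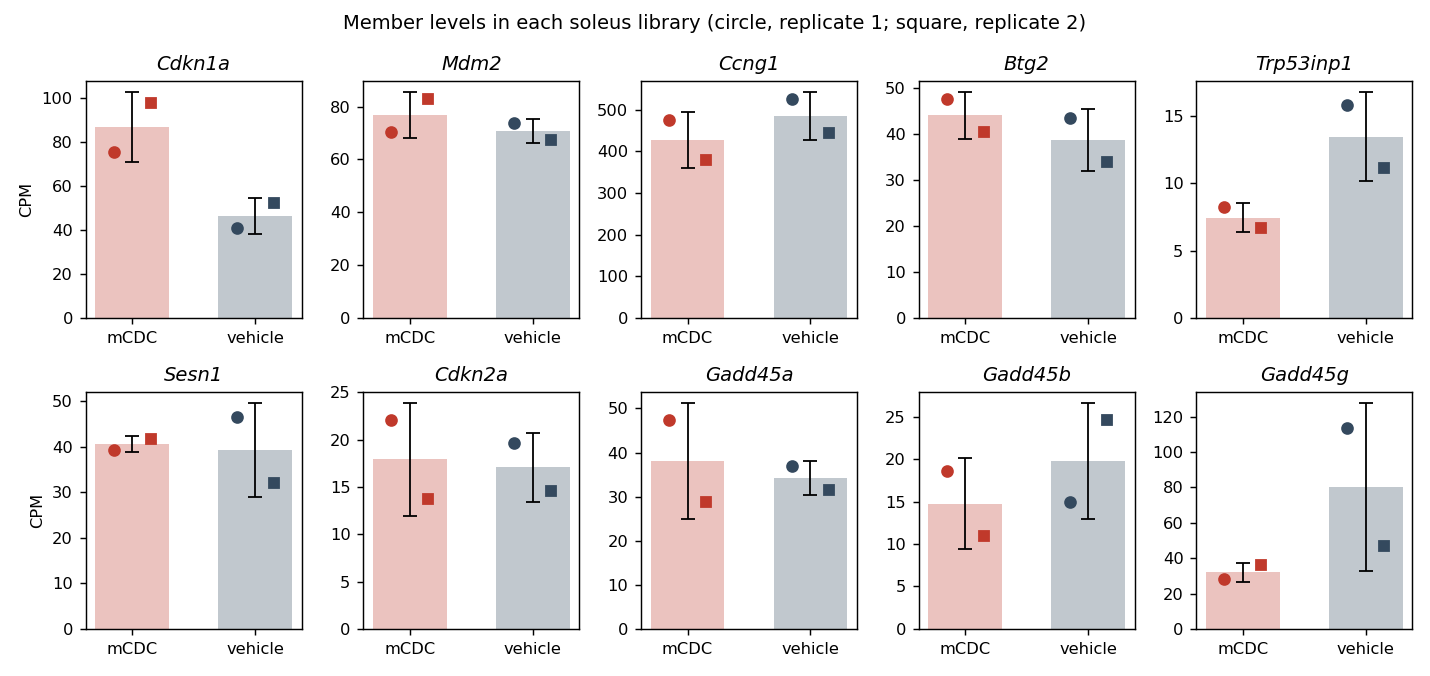
Levels of the 10 members in CPM in each soleus library, with mCDC and vehicle on the horizontal axis, circles for replicate 1 and squares for replicate 2, and each vertical axis starting at 0. Cdkn1a was at or above 75.4 CPM in both mCDC libraries and at or below 52.1 CPM in both vehicle libraries, while Gadd45g was at 113.8 CPM in vehicle replicate 1 and at most 46.8 CPM in the other 3.

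Mdm2, Ccng1, Btg2 and Sesn1, which like Cdkn1a are direct targets of p53, did not separate by treatment. Mdm2, the ubiquitin ligase that marks p53 for degradation (chr10:117688875-117710758, minus strand), had 70.5 and 82.8 CPM in mCDC muscles and 73.9 and 67.4 CPM in vehicle muscles. The groups overlapped, and the log2 fold change was 0.12 (SE 0.14). Cyclin G1, encoded by Ccng1 (chr11:40748552-40755311, minus strand), recruits a phosphatase to Mdm2. Ccng1 had 475 and 380 CPM in mCDC muscles and 525 and 444 CPM in vehicle muscles. Vehicle replicate 2 was below mCDC replicate 1, and the log2 fold change was -0.18 (SE 0.16).

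Btg2, an antiproliferative factor that promotes deadenylation of mRNA (chr1:134075170-134079120, minus strand), had 47.7 and 40.6 CPM in mCDC muscles and 43.5 and 34.1 CPM in vehicle muscles. The ranges overlapped, and the log2 fold change was 0.19 (SE 0.17). Sesn1, a sestrin that restrains mTORC1 and lowers oxidative stress (chr10:41809935-41908424, plus strand), had 39.3 and 41.8 CPM in mCDC muscles and 46.6 and 32.1 CPM in vehicle muscles. Both mCDC libraries lay between the vehicle libraries, with a log2 fold change of 0.04 (SE 0.19). Sesn1 also overlaps 9930024M15Rik on the same strand, a model that the count table does not list.

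Trp53inp1 had the opposite order to Cdkn1a. This stress-induced nuclear protein (chr4:11156431-11174379, plus strand) takes part in p53 activation and autophagy. It had 8.22 and 6.71 CPM in mCDC muscles and 15.8 and 11.1 CPM in vehicle muscles, and both mCDC libraries were below both vehicle libraries. The means were 7.47 ± 1.06 CPM (SD, n = 2) and 13.5 ± 3.30 CPM (SD, n = 2), and the log2 fold change was -0.85 (SE 0.23), 1.80-fold lower. Without vehicle replicate 1 the log2 fold change was -0.57, under the fold threshold. It was -0.67 with the trend of transcript length and GC content removed.

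Cdkn2a stood on the other side of the pathway, since p19Arf blocks Mdm2 and p16Ink4a inhibits the kinases Cdk4 and Cdk6. The gene (chr4:89274471-89294653, minus strand) is a single row in the table, so the transcripts of p16Ink4a and p19Arf, which start at different sites, cannot be told apart. It had 22.1 and 13.7 CPM in mCDC muscles and 19.7 and 14.5 CPM in vehicle muscles. Both vehicle libraries lay between the mCDC libraries, with a log2 fold change of 0.07 (SE 0.26).

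Of the Gadd45 genes, Gadd45g was lower in mCDC muscles and the other two overlapped. Gadd45g (chr13:51846678-51848468, plus strand) had 28.3 and 36.0 CPM in mCDC muscles and 113.8 and 46.8 CPM in vehicle muscles. The groups did not overlap, but vehicle replicate 1 had more than the sum of the other 3 libraries. The means were 32.1 ± 5.39 CPM (SD, n = 2) and 80.3 ± 47.4 CPM (SD, n = 2), and the log2 fold change was -1.32 (SE 0.36), 2.50-fold lower. Without vehicle replicate 1 it was -0.54, under the fold threshold.

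Gadd45a (chr6:67035096-67037457, minus strand) had 47.4 and 28.7 CPM in mCDC muscles and 36.9 and 31.6 CPM in vehicle muscles, with a log2 fold change of 0.15 (SE 0.23). The mCDC libraries lay on either side of both vehicle libraries. Of its 31-base words, 17.0% are shared with the antisense gene E230016M11Rik, which had at most 0.947 CPM in any library. The sum of both genes was 48.3 and 29.3 CPM in mCDC muscles and 37.7 and 32.2 CPM in vehicle muscles, the same order of libraries. Whether reads were counted by strand is not given in the sources used here.

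Gadd45b (chr10:80930073-80932204, plus strand), a paralog induced by NF-kB and TGF-beta signalling, had 18.6 and 10.96 CPM in mCDC muscles and 14.996 and 24.6 CPM in vehicle muscles. The groups overlapped, with a log2 fold change of -0.42 (SE 0.30). Without mCDC replicate 1 the log2 fold change was -0.85, and without vehicle replicate 2 it was -0.021.

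**Figure D2:**
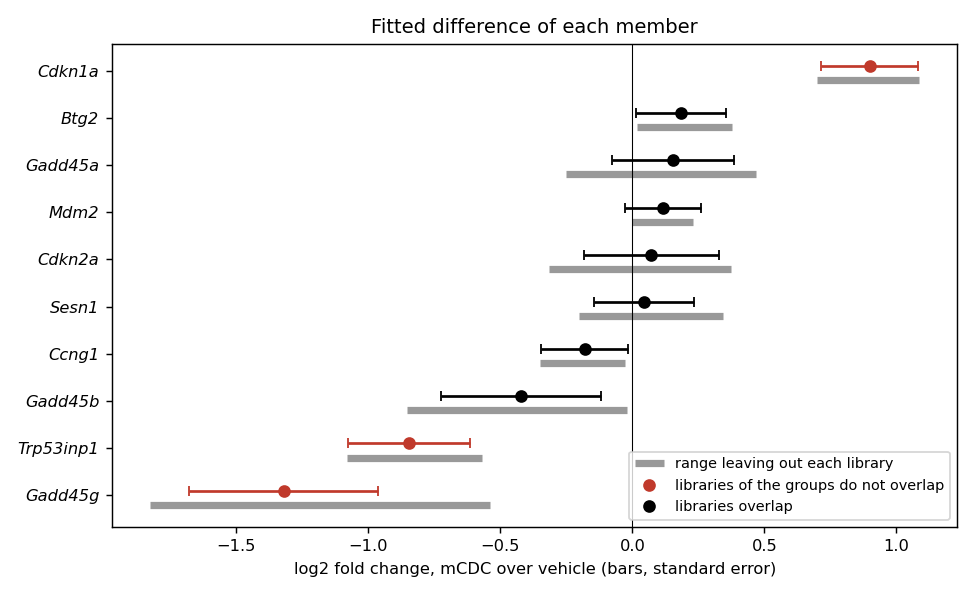
Log2 fold change of each member, mCDC over vehicle, on the horizontal axis, with bars for the standard error and grey bars for the range when each library was left out. Cdkn1a at 0.90, Trp53inp1 at -0.85 and Gadd45g at -1.32 are the 3 members whose groups did not overlap.

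In all, 1 member was past the thresholds with a higher level in mCDC muscles (1.26% of all genes tested were) and 2 with a lower one (2.74% of all genes tested were). Both mCDC libraries were above both vehicle libraries for 1 member, against 19.2% of all genes tested, and below both for 2 members, against 19.5%. These counts belong to genes chosen on this contrast, and nothing is read from them. Of the 10 log2 fold changes, 6 were above 0 and 4 below, with a median of 0.06 beside -0.0094 for all genes tested.

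The spread within a group also differed among the members. The 2 mCDC libraries differed by a median of 0.186 log2 units over all genes tested and the 2 vehicle libraries by 0.232. Gadd45g differed by 1.28 between the vehicle libraries, more than 97.9% of genes did, and by 0.34 between the mCDC libraries. Gadd45a, Gadd45b and Cdkn2a differed by 0.72, 0.76 and 0.69 between the mCDC libraries, with replicate 1 the higher of the pair in each. Cdkn1a differed by 0.38 between the mCDC libraries and by 0.35 between the vehicle libraries, with replicate 2 the higher in both groups.

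**Figure D3:**
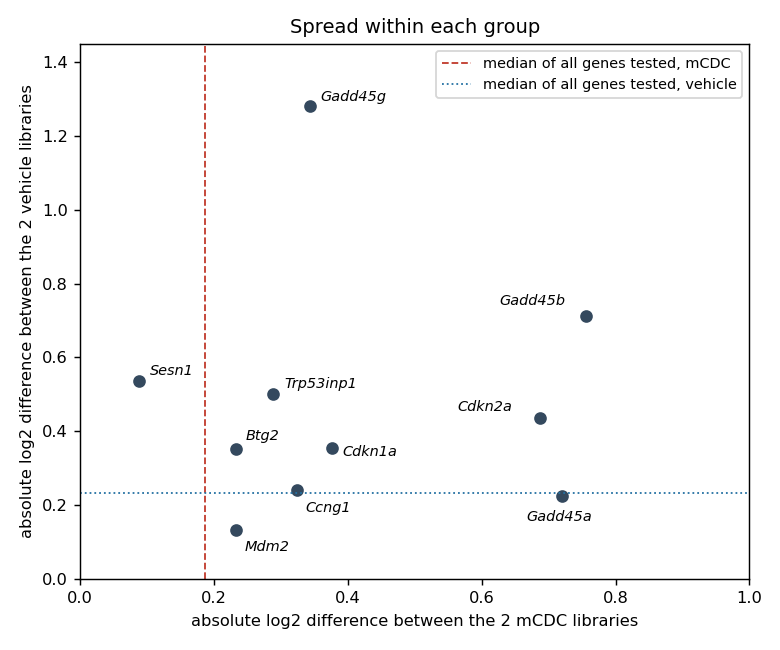
Absolute log2 difference between the 2 mCDC libraries on the horizontal axis and between the 2 vehicle libraries on the vertical axis for each member, with lines at the medians of all genes tested, 0.186 and 0.232. Gadd45g lies highest at 1.28, and Gadd45b lies farthest to the right at 0.76.

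Per transcript length, the members spanned a wide range of levels. On the scale of counts per transcript length, scaled to a sum of 1000000 in each library, Ccng1 had the highest level at 306 ± 52.9 (SD, n = 4). It was followed by Gadd45g at 126 ± 94.0 (SD, n = 4), Cdkn1a at 74.0 ± 24.9 (SD, n = 4), Gadd45a at 69.3 ± 15.2 (SD, n = 4) and Mdm2 at 54.9 ± 4.396 (SD, n = 4). Next came Cdkn2a at 45.9 ± 10.9, Btg2 at 35.4 ± 4.70, Gadd45b at 31.7 ± 11.2, Sesn1 at 24.6 ± 4.24 and Trp53inp1 at 4.59 ± 1.98 (SD, n = 4 each). These SDs span both groups. In this order 8 of the 9 neighbouring pairs overlapped in range. Trp53inp1, at 2.76 to 7.23, was the one member separate from its neighbour, Sesn1, at 20.3 to 30.4. With the median in place of the longest transcript length, Mdm2 moved from rank 5 to rank 2 and Btg2 from rank 7 to rank 9. Gadd45b moved from rank 8 to rank 6, and Ccng1 and Trp53inp1 alone kept their ranks.

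On the same scale, the 3 Gadd45 genes summed to 179.6 and 147 in mCDC muscles and to 368 and 214 in vehicle muscles. Gadd45g made up 33.2% and 51.2% of that sum in mCDC muscles and 71.7% and 49.3% in vehicle muscles, so the groups overlapped. Gadd45a made up 48.6% and 35.8% in mCDC muscles and 20.4% and 29.1% in vehicle muscles, higher in both mCDC libraries.

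**Figure D4:**
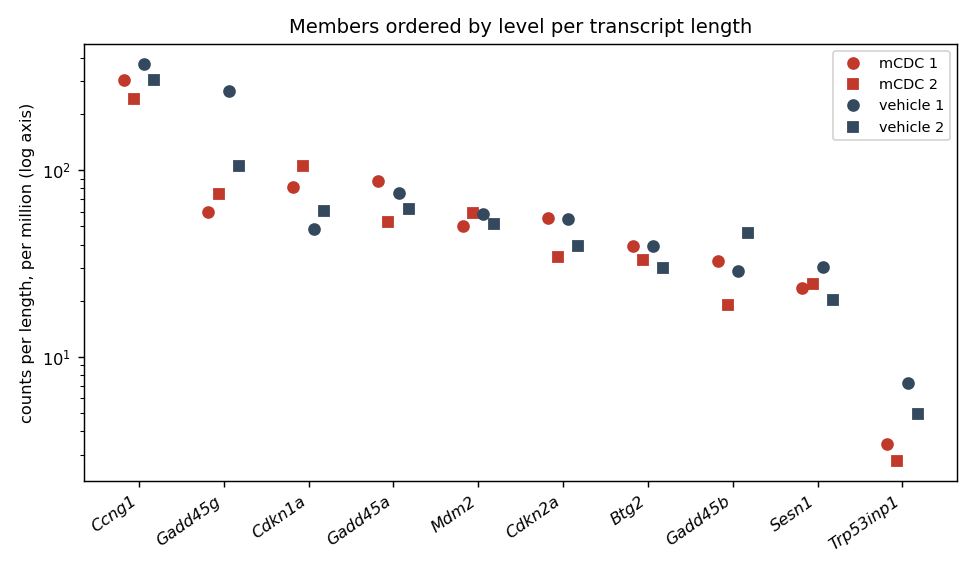
Level of each member in counts per transcript length per 1000000, on a log axis, in the 4 libraries, with members ordered by their mean. Ccng1 lies highest at a mean of 306 and Trp53inp1 lowest at 4.59, and the ranges of 8 of the 9 neighbouring pairs overlap.

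The genes most like Cdkn1a over the 4 libraries, by Euclidean distance of log2 CPM centred on each gene, included Sbno2, Stac, Clu and Gm8579, at 0.0934, 0.129, 0.157 and 0.186 log2 units. Sbno2 and Clu had log2 fold changes of 0.87 and 0.90, while Stac and Gm8579 had at most 19 counts in any library. These genes were picked for likeness to Cdkn1a, itself chosen on this contrast. Fold changes near that of Cdkn1a therefore follow from the choice, and nothing is read from them. Among the members, Mdm2 was nearest to Cdkn1a at 0.86 and Gadd45g farthest at 2.39.

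Related genes were then counted in 8 lists that leave the members out. Together they held 185 genes of the table, of which 166 were tested, 9 were called higher and 6 lower by edgeR's quasi-likelihood test, and their median log2 fold change was 0.02. The 15 called genes had adjusted p from 0.462 to 0.713. Of all genes tested, 1.26% were called higher and 2.74% lower, with a median log2 fold change of -0.0094. These are the values to set beside the counts and medians of each list.

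Among 36 tested of 38 other p53 targets, 0 were called higher and 1 lower (1 and 2 with DESeq2), 3 had an unadjusted p under 0.05 by edgeR, and there were 16 log2 fold changes above 0, 20 below and a median of -0.06. The gene that fell was Ddit4, an inhibitor of mTORC1 that glucocorticoids and hypoxia also induce. Ddit4 had 6.32 and 6.08 CPM in mCDC muscles and 27.8 and 12.8 CPM in vehicle muscles, and its log2 fold change was -1.71 (SE 0.34, adjusted p = 0.462 by edgeR). It fell in each of the 12 alternatives, and by 1.04 on the log2 scale without vehicle replicate 1. Without that library 5 targets were called lower, and without vehicle replicate 2 the number called higher was 2.

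Of the p53 targets that were not called by edgeR, Pltp, a lipid transfer protein, had a log2 fold change of -0.93 (SE 0.49). Sesn2, a stress-induced sestrin also not called by edgeR, had one of 0.67 (SE 0.30). Both mCDC libraries lay above both vehicle libraries for 7 of the 36 targets and below for 8, beside 19.2% and 19.5% of all genes tested. Of those 7, Phlda3, an inhibitor of Akt, had 348 and 446 CPM in mCDC muscles and 288 and 307 CPM in vehicle muscles, and was named after its values were seen. Its log2 fold change was 0.42 (SE 0.16, adjusted p = 0.705 by edgeR), under the fold threshold. In RefSeq promoters, 8 of 35 promoters of 28 listed targets held a p53 decamer (22.9%), and 0 held a close pair.

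Of 21 tested genes among p53 and its regulators, 0 were called by edgeR or by DESeq2 and 2 had an unadjusted p under 0.05 by edgeR, with a median log2 fold change of -0.18. Trp53, which encodes p53, had 17.6 and 22.5 CPM in mCDC muscles and 13.9 and 19.3 CPM in vehicle muscles, and the groups overlapped, with a log2 fold change of 0.27 (SE 0.21). Mdm4, the partner of Mdm2, had 3.98 and 4.52 CPM in mCDC muscles and 6.18 and 6.22 CPM in vehicle muscles. Its log2 fold change was -0.55 (SE 0.22), that of the ubiquitin ligase Rchy1 was 0.37 (SE 0.16) and that of the checkpoint kinase Chek2 was -0.36 (SE 0.37), and none was called. In this list both mCDC libraries were below both vehicle libraries for 9 of 21 genes, beside 19.5% of all genes tested, and above for 1, beside 19.2%.

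Of 14 tested family relatives of the members, 0 were called by edgeR, where 1 had an unadjusted p under 0.05, and 1 was called higher by DESeq2, with a median log2 fold change of 0.01. At most 1 was called in each direction with any library left out. Among the CDK inhibitors, the log2 fold changes were 0.14 (SE 0.18) for Cdkn1b and -0.27 (SE 0.28) for Cdkn1c, the paralogs of Cdkn1a. Those of Cdkn2b, Cdkn2c and Cdkn2d, the paralogs of Cdkn2a, were 0.42, 0.06 and -0.17. Cdkn2b had 5.34 and 5.21 CPM in mCDC muscles and 4.35 and 3.57 CPM in vehicle muscles, without overlap. Ccng2, the paralog of Ccng1, had a log2 fold change of -0.35, Trp53inp2 one of -0.04 and Sesn3 one of -0.23. In the Btg and Tob family of antiproliferative factors, Btg1, Btg3, Tob1 and Tob2 had 0.25, 0.08, 0.46 and -0.39. Btg4, an oocyte gene, had 0 counts in every library and was not tested.

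Of 19 tested CDK and Rb pathway genes, 0 were called by edgeR or by DESeq2 and 1 had an unadjusted p under 0.05 by edgeR, and the median log2 fold change was -0.11. Leaving out mCDC replicate 1 gave 2 called higher, leaving out vehicle replicate 1 or 2 gave 2 or 1 called lower, and using no filter gave 1 called lower. The 3 farthest from 0 were Cdk6 at 0.84 (SE 0.63), Ccne1 at -0.76 (SE 0.46) and Cdk2 at -0.57 (SE 0.31), kinases and a cyclin of the entry into S phase with at most 5.28 CPM. Of 16 tested Gadd45 partners and stress kinases, 1 was called higher and 1 lower. Ppp1r15a, also known as Gadd34 and a regulator of eIF2alpha phosphorylation, rose from 49.4 and 42.6 CPM in vehicle muscles to 54.3 and 97.7 CPM in mCDC muscles, with a log2 fold change of 0.72 (SE 0.25, adjusted p = 0.685 by edgeR). Map2k6, an activator of p38 kinases, fell, with a log2 fold change of -0.71 (SE 0.28, adjusted p = 0.713 by edgeR). Both calls were lost without mCDC replicate 2, where the log2 fold change of Ppp1r15a was 0.24 and that of Map2k6 was -0.37. Ppp1r15a was also not called without vehicle replicate 2, at 0.62, and Map2k6 without vehicle replicate 1, at -0.45. The demethylation enzyme Tdg, a partner of Gadd45a, had a log2 fold change of -0.33 (SE 0.35) and was not called.

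Of 18 tested senescence genes, which include secreted factors, 2 were called higher and 0 lower, with a median log2 fold change of 0.05. Hmga1, a chromatin protein of proliferating cells, rose by a log2 fold change of 0.67 (SE 0.24, adjusted p = 0.700 by edgeR) and was called in 1 of the 4 fits that left out a library, the one without mCDC replicate 1. Its log2 fold change was 0.69 without vehicle replicate 1, 0.64 without vehicle replicate 2 and 0.19 without mCDC replicate 2. Leaving out mCDC replicate 2 or vehicle replicate 1 gave 1 gene of the list called higher, and leaving out either of the other libraries gave 3. In the lower direction 1 was called with no filter and in each fit that left out a library except that without mCDC replicate 2. The chemokine Cxcl10 had 1.24 (SE 0.64) at under 1.01 CPM and was not called.

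Of 20 genes of denervated or atrophying fibres, 4 were called higher and 2 lower, with a median log2 fold change of 0.16. Among those that rose, Myog, the myogenic transcription factor, the stretch-induced Ankrd1 and the transcription factor Runx1 had log2 fold changes of 1.07, 0.72 and 0.66. Ankrd1 had 118.3 and 256 CPM in mCDC muscles and 117.9 and 109.5 CPM in vehicle muscles, so its value rested on mCDC replicate 2, without which the log2 fold change was 0.057. It was called in 1 of the 4 fits that left out a library and in 4 of the 8 other alternatives, and was not called with DESeq2, upper-quartile scaling, no filter or a replicate block. Runx1 was not called without mCDC replicate 2 (0.26), without vehicle replicate 2 (0.44) or with a replicate block, under which 2 genes of the list were called higher. Myog was not called without mCDC replicate 2 (0.51). The transcription factor Foxo3 and the ubiquitin ligase Fbxo32 fell, with -1.13 and -0.67. Without vehicle replicate 1 the log2 fold change of Foxo3 was -0.30 and it was not called. Fbxo32 was not called without mCDC replicate 2 (-0.50) or vehicle replicate 1 (-0.49), nor after the length and GC correction. The number called higher was 0 without mCDC replicate 2 and 1 without vehicle replicate 2, and without vehicle replicate 1 the number called lower was 0.

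Of 25 immediate early genes, 2 were called higher and 2 lower, with a median log2 fold change of 0.29. The AP-1 and stress factors Fosl1 and Atf3 rose, with log2 fold changes of 3.83 and 1.65, and Atf3 went from 14.0 and 11.8 CPM to 21.6 and 60.0 CPM. Fosl1 had 0.153 and 0.145 CPM in vehicle muscles and 0.947 and 3.52 CPM in mCDC muscles. These stand for 4.26 expected counts in each vehicle library and 24.8 and 76.6 in the mCDC libraries. Fosl1 thus passed the filter on low counts through the mCDC libraries alone, and the size of its fold is uncertain. With at least 10 counts required in every library it was not tested, and 1 gene of the list was called higher. Without mCDC replicate 2 the log2 fold changes were 2.63 for Fosl1 and 0.74 for Atf3. Zfp36, which destabilizes mRNA, and the transcription factor Klf6 fell, with -0.70 and -0.63. Each was called in 2 of the 4 fits that left out a library. Zfp36 was not called without mCDC replicate 2 (-0.53) or vehicle replicate 1 (-0.31). Klf6 was not called without mCDC replicate 1 (-0.43) or vehicle replicate 1 (-0.36), nor with the length and GC trend removed. Leaving out mCDC replicate 1 gave 9 called higher, and leaving out vehicle replicate 1 or 2 gave 6 or 5, and 4 were called higher with a replicate block.

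**Figure D5:**
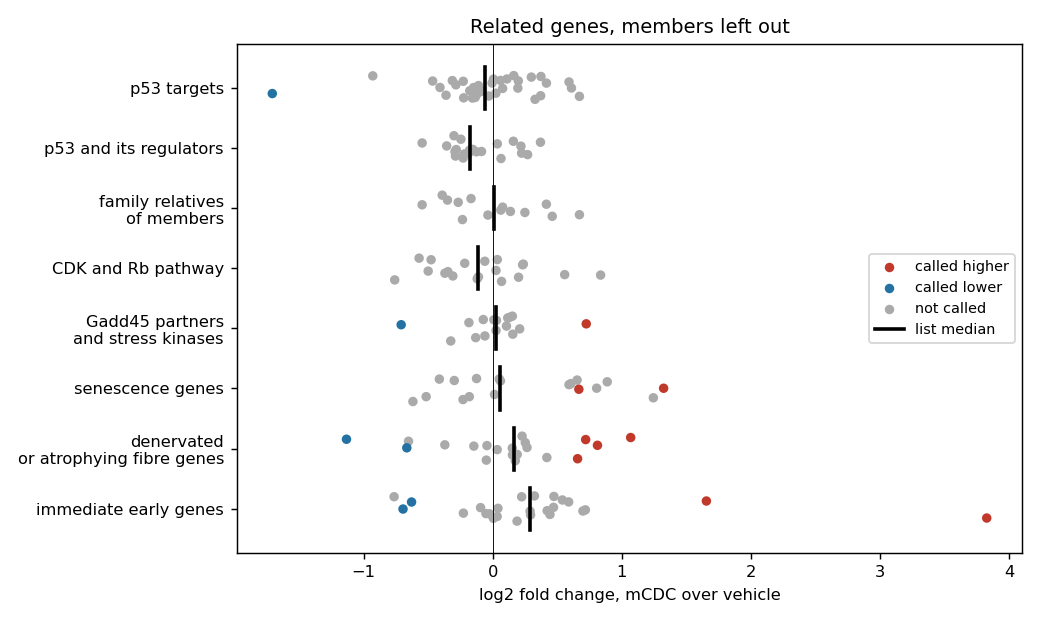
Log2 fold change, mCDC over vehicle, of each tested gene of 8 lists of related genes without the members, in red where called higher, blue where called lower and grey where not called, with a black bar at each list's median. The 36 other p53 targets are centred at a median of -0.06, with Ddit4 at -1.71 as their 1 called gene. The fibre list of 20 tested genes and the immediate early list of 25 hold 10 of the 15 calls. Of all genes tested, 1.26% were called higher and 2.74% lower. The lists were chosen with earlier results of these data known.

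Markers of other cells moved with the groups in part. The counts called are to be set beside all genes tested, of which 1.26% were called higher and 2.74% lower. The satellite cell markers summed to 165 and 141 CPM in mCDC muscles and 130.3 and 100.3 CPM in vehicle muscles. Of 6 tested, 2 were called higher (Pax7 and Myod1, log2 fold changes 0.76 and 0.84) and 1 lower (Chodl, -0.87). Vehicle replicate 2 had the highest sum of endothelial markers, 222 CPM beside 100.04 to 124 in the others. Its sum of fibro-adipogenic markers was 539 CPM, beside 293 to 336 in the others. It also had the highest sums of macrophage, smooth muscle, adipocyte, Schwann, tendon and red blood cell markers. Of the endothelial markers 0 of 6 were called, and of the fibro-adipogenic markers 2 of 7 were called lower. All 6 and all 7 had log2 fold changes below 0, with medians of -0.53 and -0.45. The macrophage markers summed to 43.1 and 51.5 CPM in mCDC muscles and 36.1 and 56.2 CPM in vehicle muscles, with 1 of 9 called higher and 1 lower. Of 5 tendon markers, 1 was called higher and 3 lower, 1 of 5 smooth muscle markers was called lower, and 0 of the 15 tested adipocyte, Schwann, red blood cell and T cell markers were called. None of the neutrophil or B cell markers was tested, and Mpo, Cd3g and Ms4a1 were at 0 in every library. The part of these cells in the levels of the members was not tested.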

How the data were processed

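Soleus RNA from 2 mCDC and 2 vehicle mdx muscles was sequenced. The authors aligned reads with Bowtie2 2.1.0 to mm10 transcripts, as the submitters' processing notes name them, and deposited RSEM 1.2.15 expected counts per gene, with no normalization; 15.7% of values were not whole. The sample records name a TruSeq Stranded mRNA kit and the study's methods an xGen Broad-Range kit.

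Expected counts were rounded and fitted with edgeR 4.0.16 in R 4.3.3 (filterByExpr, TMM, glmQLFit with legacy = FALSE, prior count 2 for log2 CPM). The SE was taken as the size of the log2 fold change over the root of its F statistic. Lengths were matched for 98.3% of symbols. The procedure was tested on simulated data. Alternatives were DESeq2 1.42.0, other scalings and filters, the legacy test, a length and GC correction, a replicate block, and each library left out.

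The members and lists were chosen with earlier results of these data known. Named genes were the members, their family relatives, Trp53, all called genes of the other lists, filled up to 3 per list by absolute log2 fold change, and the 5 genes nearest to Cdkn1a; markers were summed by list. A few genes that this rule picks are not reported here. Tigar, Cop1 and Adgre1 were found under older symbols, and Ly6g and Trac were not matched.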

Additional observations from a re-analysis of the deposited data

How the results depend on the processing

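Leaving out each library in turn gave 112 to 397 genes called higher and 236 to 834 called lower among all genes tested, 4 to 20 related genes called higher and 3 to 12 called lower, and 0 to 3 members called lower; the 0 arose without vehicle replicate 1. A lone sample left in a group was assumed to vary like the other group. Under the other 8 alternatives these counts stayed within 1.5 times: for all genes, 157 higher and 270 lower with DESeq2, 207 and 466 with no filter on low counts, and 207 and 293 with the length and GC trend removed. Among members not called, the sign turned for Cdkn2a (-0.02 with the length and GC trend removed, -0.32 without mCDC replicate 1, -0.13 without vehicle replicate 2), Gadd45a (-0.25 without mCDC replicate 1), Mdm2 (-0.0032 without mCDC replicate 2) and Sesn1 (-1.6e-04 without mCDC replicate 2, -0.20 without vehicle replicate 2). The replicate numbers are shared but nothing pairs the muscles: same-numbered deviations correlated at -0.039, and with a replicate block 172 genes were called higher and 308 lower. Of the related genes called, 4, among them Ddit4, Atf3 and Fosl1, were called in every fit that tested them. With 2 libraries a group, 1 library can decide a call.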
